A study of Sus scrofa with 24 samples.

Results

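The genes described here are 9 pig genes, NGLY1, PUSL1, TOMM5, POLR3F, AMOTL2, NPM2, RAB35, PRKD3 and PNPLA4. Their measured level on the array, by some or all of their probes, differed between pigs in much the same way in every tissue sampled. They were selected on those measured values. For each probe the deviation of every array from the mean of its tissue was compared among 4 tissues of the same pig, and the genes were chosen as steady over tissues, so the differences between pigs given below are a description and carry no test. The 9 genes are of 11830 that could be named on the array, and they are read by 21 of its 60305 probes. Of these 21 probes 19 passed the filter on dim signals, and the others, NGLY1 probe 8 and POLR3F probe 2, are given with that limit. A further RAB35 probe and a further PNPLA4 probe are named otherwise in the files and were tied to their gene through a gene number (RAB35) and an Ensembl transcript (PNPLA4). Probes of a gene are numbered from the brightest to the dimmest, and those 2 come last.

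RNA was measured in jejunal Peyer's patches (called Peyer here, as in the labels), in jejunum collected without patches, in spleen and in liver. Each tissue came from the same 6 crossbred pigs, numbered 68, 69, 70, 71, 73 and 75, which had been weaned at day 28, had free access to feed and water and were killed at 10 weeks. The 24 arrays are one-colour Agilent expression arrays with 1 sample each. Sex, parentage and genotype of the pigs are not given in the sources used here, and each pig gave 1 sample of a tissue.

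Levels are log2 signals from which the 75th percentile of the array was subtracted, so 0 is the 75th percentile. The tissue labels were checked on marker genes. The mean level of 6 liver genes was 8.85 to 9.11 on the Liver arrays and at most 0.54 elsewhere, and that of 6 enterocyte genes was 5.0 to 6.84 on the Peyer and Jejunum arrays and at most -1.78 elsewhere. Within Spleen the liver genes ranged from -3.95 to 0.54, highest in pig 68. The enterocyte genes had -1.78 in the Spleen of pig 73, against -5.3 to -4.37 on the other Spleen arrays. Whether these arrays held RNA of another tissue was not tested, and no result is given without them alone. One Peyer array stood apart. The mean level of 7 B cell and Peyer's patch genes was -1.3 on the Peyer array of pig 71, against 2.62 to 3.38 on the other Peyer arrays, so results that rest on that array are also given without it. Slides 1 to 3 held Liver and Spleen and slides 4 to 6 held Jejunum and Peyer, each slide with 1 pair of pigs (68 with 69, 70 with 71, 73 with 75). The pigs of a pair can therefore be compared within a slide in every tissue, whereas pair and slide cannot be told apart. Slide 6, with Jejunum and Peyer of pigs 73 and 75, was scanned on another day than the other slides. In those tissues this pair and its scan day cannot be told apart either.

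As background, gene expression can differ between individuals of a species because of inherited differences in or near a gene, and such differences are often seen in several tissues of one animal. A microarray probe is a fixed short stretch of DNA that captures labelled RNA by base pairing, so its signal depends both on how much RNA there is and on how well that RNA pairs with the probe. With a single probe these cannot be told apart from the signal, and the pigs' own bases under the probes were not analysed here. In bulk tissue, fewer cells of a type and less RNA per cell cannot be told apart either.

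The measure of steadiness is the share of the tissue-centred sum of squares that pig accounts for, where 100 percent means that a pig deviates by the same amount in every tissue. Over the 42650 probes that passed the filter this share had a median of 33.2%, quartiles of 22.8% and 45.7% and a range of 0.5% to 99.0%. Of the 19 member probes, 16 had a share above the upper quartile. The exceptions were PRKD3 probes 2, 3 and 4, with 32.2%, 19.0% and 21.4%. The limma F-test of pig beside tissue called 5.48% of all tested probes, which is the background against which steadiness is seen on this array, and nothing is read from the members' own calls because they were chosen on this contrast.

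**Figure D1:**
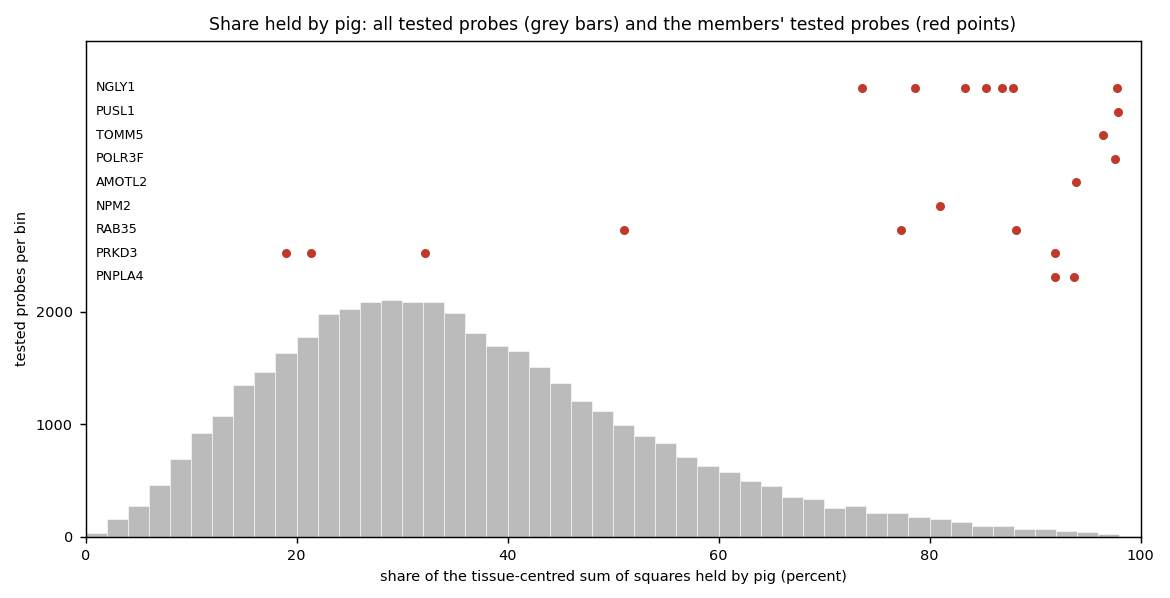
Histogram of the share of the tissue-centred sum of squares held by pig, in percent, over the 42650 tested probes (grey bars, probes per bin), with the tested probes of each member gene as red points on rows above it, including the 2 probes tied by accession. PUSL1, POLR3F, TOMM5 and NGLY1 probe 1 lie at 96.4% to 97.9%, while 3 of the 4 PRKD3 probes lie at 19.0% to 32.2%, below the median of all probes.

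NGLY1 encodes the cytosolic peptide N-glycanase, which strips sugar chains from misfolded glycoproteins that have been moved out of the endoplasmic reticulum. It is read by 8 probes, more than any other member. On probe 1 the levels of pigs 69 and 73 were 3.3 and 3.63 in Peyer, 3.44 and 3.38 in Jejunum, 4.0 and 4.15 in Spleen and 3.55 and 3.43 in Liver. The other pigs lay between 1.55 and 1.76 in Peyer, 0.93 and 1.58 in Jejunum, 1.48 and 2.19 in Spleen and 1.23 and 1.89 in Liver. Pigs 69 and 73 were thus above the rest in each tissue with no overlap. The mean deviation over 4 tissues was 1.40 ± 0.14 (SD, n = 4 tissues) in pig 73 and -0.95 ± 0.19 in pig 70, a difference of 2.35 on the log2 scale or 5.1-fold in signal.

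The same pair of pigs was highest on the other NGLY1 probes. Pigs 69 and 73 had the highest mean deviations on all 7 tested probes, and they were above the other 4 pigs in 27 of 28 combinations of probe and tissue. The exception was probe 2 in Jejunum, where pig 73 had 0.36, below pigs 68, 70 and 75 with 0.59, 0.56 and 0.48. Probe 8 was well above background on only 14 of 24 arrays, and there too pigs 73 and 69 had the highest deviations, at 2.03 ± 0.45 and 1.65 ± 1.26.

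Below that pair the probes differed. Pig 70 was lowest on probe 1, pig 71 on probes 2, 3, 4 and 6, and pig 75 on probes 5, 7 and 8. The span between the highest and the lowest pig was 2.35 on probe 1 and 1.12 to 1.77 on probes 2 to 7. Over 24 deviations, which share arrays and pigs, probes 2, 3 and 4 correlated with each other at r = 0.95 to 0.98 and probes 5 and 7 at r = 0.94, while probe 1 correlated with probes 2 to 7 at 0.73 to 0.89. The files place probes 7, 5, 4, 3 and 2 at bases 644, 1108, 1477, 1569 and 2115 of 1 Ensembl transcript, so these probes read separate stretches of the RNA in that order. Among these probes, the groups of like probes lie at neighbouring positions. Probe 6, placed at base 2798 of a RefSeq transcript, belonged to neither group. It correlated at r = 0.82, 0.84 and 0.89 with probes 2, 3 and 4, and at 0.88 with probes 5 and 7.

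The stretches below are the middle 30 bases of the 60-base probes, from the scanner files. They are shown for the brightest probe and for the first and the last of the probes placed on that Ensembl transcript. These probes share no run of 16 bases and all have pigs 69 and 73 highest.
NGLY1 probe 1, bases 16 to 45: ggagtttcctggcagcctaatgggttgagg
NGLY1 probe 7, bases 16 to 45: ggtttaaggaagagtttttccactgggtga
NGLY1 probe 2, bases 16 to 45: ctataatttggagtaaagtcttactgcccc

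Probe 1 was searched for runs of at least 16 bases shared with any other probe of the array, on either strand. It shared 16 or 17 bases with 4 probes, named UPB1, SMEK1, TC580861 and TC561107 in the files. Those probes correlated with it at r = -0.25, -0.11, -0.21 and 0.1 over 24 deviations. Probes 2 to 8 shared no such run.

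**Figure D2:**
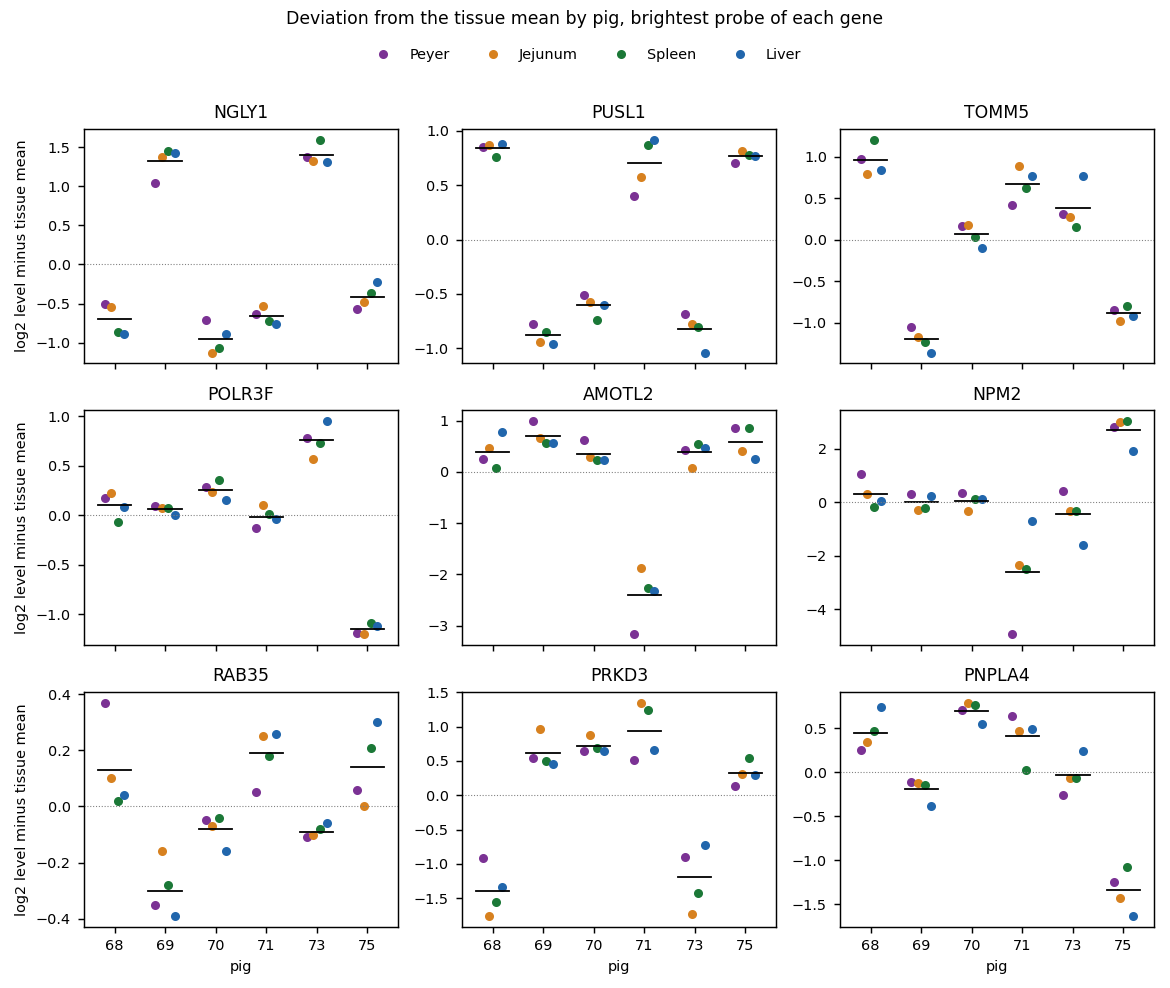
Log2 level minus the tissue mean (vertical axis) for each of the 6 pigs (horizontal axis) on the brightest probe named for each gene, with 1 point per tissue and a black bar at the pig's mean over 4 tissues. The points of the 4 tissues lie close together within a pig for PUSL1 and POLR3F, and spread most for NPM2, where pig 71 ranges from -4.94 to -0.71.

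PUSL1, a pseudouridine synthase that in human cells modifies transfer RNA of the mitochondrion, split the pigs into 3 high and 3 low. Pigs 68, 71 and 75 had levels of 1.07 to 1.52 in Peyer, 1.0 to 1.29 in Jejunum, 1.68 to 1.79 in Spleen and 1.81 to 1.96 in Liver. Pigs 69, 70 and 73 had -0.11 to 0.16 in Peyer, -0.52 to -0.15 in Jejunum, 0.07 to 0.18 in Spleen and 0.0 to 0.44 in Liver. No value of one set reached the other in any tissue. The deviation was 0.84 ± 0.06 in pig 68 and -0.88 ± 0.08 in pig 69, a 3.3-fold span, and the share held by pig was 97.9%, or 98.8% without the Peyer array of pig 71.

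The PUSL1 probe ends in 24 bases that also begin a probe which the files name Cpsf3l, after a gene for a subunit of the integrator complex. The shared run is shown in capitals because it is the longest that a member probe has with a probe named for another gene.
PUSL1 probe, bases 31 to 60: tagtccAGAAGTAAAAATAAAAGGAGAAGA
Cpsf3l probe, bases 1 to 30: AGAAGTAAAAATAAAAGGAGAAGAgccccg
The Cpsf3l probe correlated with the PUSL1 probe at r = 0.60 over 24 deviations and had a share of 47.3%. PUSL1 has 1 probe. Whether both probes read the same transcript, and whether other RNA that holds the shared bases adds to the PUSL1 signal, was not tested.

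TOMM5, a small subunit of the pore that carries proteins through the outer membrane of the mitochondrion, was low in pigs 69 and 75. Their levels were 0.52 and 0.72 in Peyer, 0.09 and 0.28 in Jejunum, -0.09 and 0.34 in Spleen and -0.48 and -0.04 in Liver. The other pigs lay at 1.74 to 2.55 in Peyer, 1.44 to 2.15 in Jejunum, 1.17 to 2.35 in Spleen and 0.78 to 1.72 in Liver, so the groups did not overlap in any tissue. Pig 68 had the highest mean deviation with 0.96 ± 0.19 and pig 69 the lowest with -1.2 ± 0.13, a span of 4.47-fold. Correlations between tissues over the 6 pigs were 0.94 to 0.98.

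POLR3F, a subunit of RNA polymerase III, which transcribes transfer RNA and other short RNAs, was low in pig 75 alone. That pig had -0.07 in Peyer, -0.38 in Jejunum, 0.03 in Spleen and -0.3 in Liver, against 0.99 to 1.9, 0.89 to 1.39, 1.05 to 1.85 and 0.78 to 1.77 in the other 5 pigs. Its deviation was -1.15 with an SD of 0.05 over 4 tissues. Pig 73 was highest in each tissue with a deviation of 0.76 ± 0.15. Without pig 75 the share held by pig was 89.5%, against 97.6% with it. The other POLR3F probe was well above background on 1 of 24 arrays and had a share of 33.5%, so a single probe carries the POLR3F pattern.

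AMOTL2, a scaffold protein of cell junctions from the angiomotin family, which in human cells holds the transcriptional coactivator YAP outside the nucleus, was low in pig 71 alone. Its level there was -6.66 in Peyer, -5.09 in Jejunum, -4.21 in Spleen and -4.2 in Liver. The other 5 pigs had -3.23 to -2.5 in Peyer, -3.14 to -2.55 in Jejunum, -1.87 to -1.09 in Spleen and -1.65 to -1.11 in Liver. The Peyer and Spleen signals of pig 71 were not well above background, and only 2 of its 4 arrays measured the probe, so its deviation of -2.41 ± 0.55 rests in part on signals near the background. With pig 71 left out, the share held by pig was 33.3%, against 93.9% with it, while the upper quartile over all tested probes without that pig was 46.3%. The difference between pigs 69 and 71 was 3.1, and it was 1.17 with normexp background and 1.98 in the authors' deposited values.

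NPM2, a nucleoplasmin that in mouse is known as a histone chaperone of the egg, had the widest span between pigs of the tested member probes and also the widest scatter around it. In Peyer its level was -3.87 in pig 71, 3.88 in pig 75 and 1.39 to 2.13 in the others. In Jejunum it was -5.18 in pig 71, 0.16 in pig 75 and -3.18 to -2.54 in the others. In Spleen it was -3.19 in pig 71, 2.33 in pig 75 and -1.02 to -0.6 in the others. In Liver pig 75 was again highest with -2.09, but the lowest was pig 73 with -5.59, on the 1 array of 24 where the probe was not well above background. Pig 75 was therefore highest in 4 of 4 tissues and pig 71 lowest in 3 of 4. The mean difference between them was 5.3 ± 2.1 (SD over 4 tissues), from 2.62 to 7.75, and the largest value came from Peyer, where the array of pig 71 also had the low B cell markers. Without that array the difference was 4.49 and the share 88.5%, against 81.0% with it. The part of the B cell markers in the NPM2 value was not tested.

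RAB35 encodes a small GTPase that steers recycling of membrane from endosomes to the cell surface, and its probes differed in the order of the pigs. On probe 1 pigs 68, 71 and 75 were above the other 3 in every tissue, as for PUSL1, but the span was small, 0.48 or 1.4-fold between pig 71 and pig 69, and the share was 77.3%. On probe 2 pig 71 was highest and pig 75 lowest, 0.58 apart, with a share of 51.0%, and without the Peyer array of pig 71 they were 0.77 apart with a share of 74.2%. Correlations between tissues over the 6 pigs on probe 2 were -0.3 to 0.8. On probe 3, which the files name by a locus number, pig 75 was highest in every tissue with a deviation of 1.26 ± 0.09 and pig 71 lowest with -0.53 ± 0.28. Its share was 88.2%, and 30.2% without pig 75.

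Over 24 deviations RAB35 probe 1 correlated with probe 2 at r = 0.44 and with probe 3 at 0.28, and probes 2 and 3 correlated at -0.39. Pig 75, the highest on probe 3, had a deviation of -0.24 ± 0.26 on probe 2. The middle 30 bases of the probes are shown because these probes are credited to one gene and order the pigs differently.
RAB35 probe 1, bases 16 to 45: ctatgaactcccatgtgtctcaggtgcacc
RAB35 probe 2, bases 16 to 45: agtgtatcaccctcgtcctgcttggctttt
RAB35 probe 3, bases 16 to 45: tgtcgaacaacaaaacttttaaatggtttg

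PRKD3, a serine and threonine kinase of the protein kinase D family that responds to the lipid messenger diacylglycerol, showed the pig pattern on 1 probe of 4. On probe 1 pigs 68 and 73 were the lowest in each tissue, with 0.61 and 0.62 in Peyer, -0.99 and -0.96 in Jejunum, 0.44 and 0.58 in Spleen and -0.26 and 0.35 in Liver. The other pigs had 1.65 to 2.16 in Peyer, 1.08 to 2.12 in Jejunum, 2.5 to 3.24 in Spleen and 1.38 to 1.74 in Liver. The highest pig was pig 71 with a mean deviation of 0.94 ± 0.42 and the lowest was pig 68 with -1.39 ± 0.36, and the span was 2.33, or 5.04-fold.

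On PRKD3 probes 2, 3 and 4 no such difference was seen. The deviations of pig 68 were -0.04 ± 0.21, 0.13 ± 0.17 and 0.02 ± 0.13, and those of pig 73 were 0.12 ± 0.14, 0.08 ± 0.19 and 0.0 ± 0.19. The span between the highest and the lowest pig on these probes was 0.32 to 0.37. The lowest was pig 71 on each, and without its Peyer array the difference between the same pigs was 0.14, -0.02 and 0.11 on probes 2, 3 and 4, and the share was 26.9%, 40.3% and 29.9%. Probe 1 correlated with them at r = -0.15 to 0.02 over 24 deviations, whereas they correlated with each other at 0.65 to 0.78. The files place probe 4 at base 917 and probe 1 at base 2537 of the same Ensembl transcript. These stretches stand for a gene whose brightest probe alone follows the pig.
PRKD3 probe 1, bases 16 to 45: tcataatgagtaggtacaagaggggaaact
PRKD3 probe 2, bases 16 to 45: cacaaaacaggaaagtcacctccgtaatga
PRKD3 probe 3, bases 16 to 45: aaattaattgcactctctttgttgctgaat
PRKD3 probe 4, bases 16 to 45: agttgtacagtccatcaagcacacaaagag

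**Figure D3:**
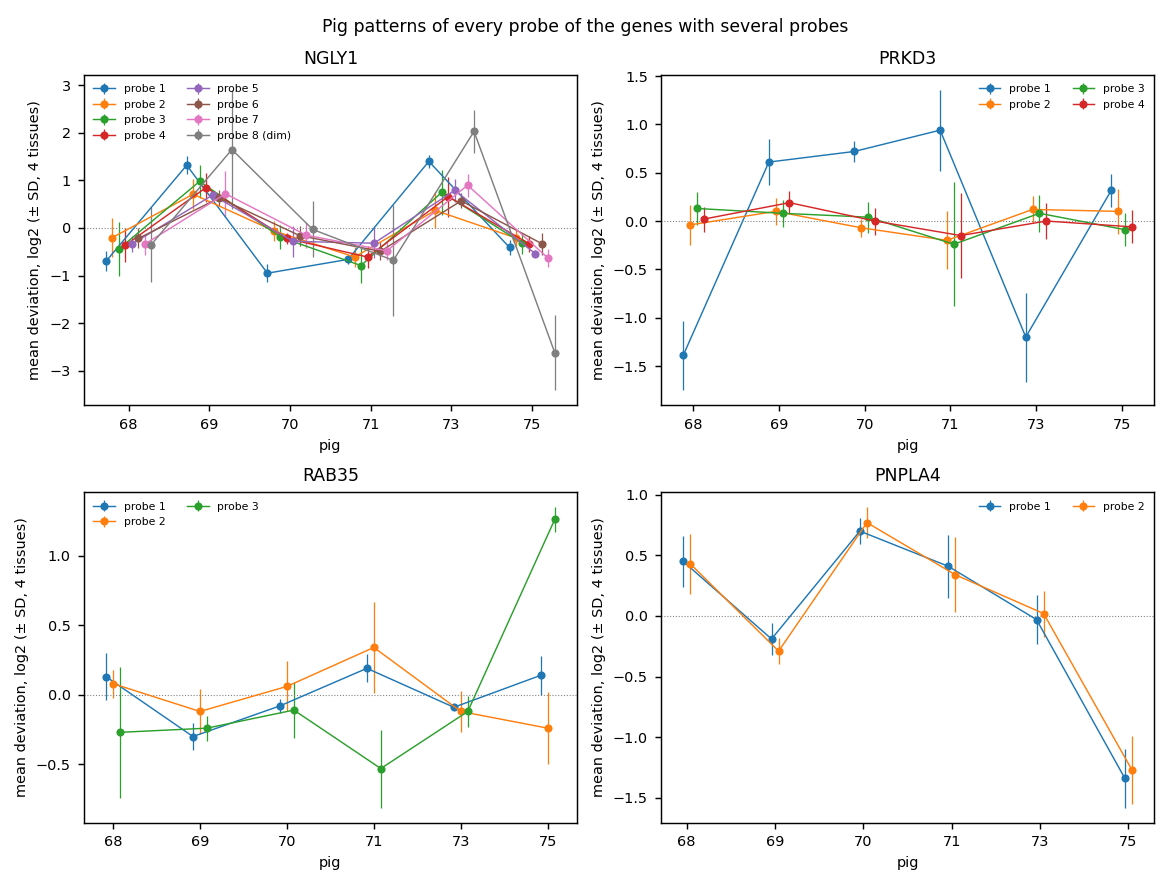
Mean deviation from the tissue mean by pig (points, log2, with bars of ± 1 SD over 4 tissues) for every probe of the genes that have several bright ones, with lines joining the pigs of one probe only to guide the eye. All NGLY1 probes are high in pigs 69 and 73, PRKD3 probe 1 alone drops in pigs 68 and 73, the RAB35 probes cross, and the PNPLA4 probes coincide. NGLY1 probe 8 is dim.

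PNPLA4, of the patatin-like phospholipase family, hydrolyses retinyl esters and other lipid esters in human cells. It was low in pig 75, with -3.02 in Peyer, -2.67 in Jejunum, -3.89 in Spleen and -2.7 in Liver on probe 1. The other pigs had -2.03 to -1.06, -1.36 to -0.45, -2.97 to -2.06 and -1.45 to -0.33 in the same tissues, so pig 75 was the lowest without overlap in each. Pig 70 had the highest mean deviation, 0.7 ± 0.11, and pig 75 the lowest, -1.34 ± 0.24, a span of 4.13-fold. The span of 2.05 on the log2 scale was 1.12 in the authors' deposited values. Without pig 75 the share was 80.7%, against 93.7% with it.

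The other PNPLA4 probe, tied to the gene through its Ensembl transcript, ordered the pigs in the same way. Pig 70 had 0.77 ± 0.13 and pig 75 had -1.27 ± 0.28 on it, and the probes correlated at r = 0.98 over 24 deviations. The probes overlap by 50 bases, of which 48 are equal. The differences are A38C and A59C, with positions counted from 1 at the 5′ end of probe 1 and the base of probe 1 written first. They are in capitals below, since the same pigs were high and low on both versions of the sequence.
PNPLA4 probe 1, bases 30 to 59: tggaatacActtgacacaatccttgatggA
PNPLA4 probe 2, bases 20 to 49: tggaatacCcttgacacaatccttgatggC
Because they overlap, these probes are not independent readings of the gene.

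Within slides, where the pigs of a pair were hybridised side by side, several differences were of like size in each tissue. For PUSL1 pig 69 minus pig 68 was -1.64 in Peyer, -1.81 in Jejunum, -1.61 in Spleen and -1.84 in Liver, and pig 75 minus pig 73 was 1.38 to 1.8. For NGLY1 probe 1 pig 69 minus pig 68 was 1.54, 1.92, 2.32 and 2.32 in the same order, and pig 75 minus pig 73 was -1.97 to -1.54. For TOMM5 pig 69 minus pig 68 was -2.44 to -1.96, for POLR3F pig 75 minus pig 73 was -2.07 to -1.77, and for AMOTL2 pig 71 minus pig 70 was -3.8 to -2.16. The sign was the same in 4 of 4 tissues for each of these pairs, which the choice of genes as steady over tissues favours. PRKD3 probe 1 gave 1.46 to 2.73 for pig 69 minus pig 68 and 1.03 to 2.05 for pig 75 minus pig 73.

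The tissues were set against each other with a test, since the choice of genes used deviations from the tissue means and not the means. Those deviations are also the error of a fit with tissue alone. Genes chosen for large differences between pigs therefore tend to a larger SE and fewer calls. The member counts below are thus not a fair comparison with the shares of all probes. A probe was called where limma's adjusted p over all tested probes was under 0.05 and the log2 difference was 1 or more in size. Of the 19 member probes, 2 were called between Peyer and Jejunum, where 14.1% of all probes were, and 3 between Spleen and Liver, against 39.6%. For tissues on different slides the numbers were 4 between Peyer and Spleen (26.8% of all probes), 2 between Peyer and Liver (41.2%), 1 between Jejunum and Liver (33.3%) and 4 between Spleen and Jejunum (31%). With pig as a replicate block the numbers were 6 for Peyer and Spleen, 2 for Jejunum and Liver and 7 for Spleen and Jejunum, and the other 3 stayed as they were. Over all tested probes the block gave 1.01 times as many calls for Peyer and Spleen (11508 of 42650), Jejunum and Liver (14265) and Spleen and Jejunum (13292). The choice of genes as steady over tissues favours a small error once pig is a block. The member counts with the block are therefore not a fair comparison with all probes either. The median difference of the 19 probes lay between -0.29 and 0.5, and that of all tested probes between -0.18 and 0.16, depending on the comparison. In the comparisons between slides 1 to 3 and slides 4 to 6, tissue and slide set cannot be told apart.

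NPM2 had the largest tissue differences of the members. It averaged 1.07 ± 2.6 in Peyer and -2.84 ± 1.72 in Jejunum (SD, n = 6 each), a difference of 3.91 ± 1.02 (SE, limma adjusted p = 0.0044) in the same direction in 6 of 6 pigs. The difference was 4.59, 2.96 and 4.19 on slides 4, 5 and 6, and 4.9 without the Peyer array of pig 71. Spleen averaged -0.71 ± 1.76 and Liver -4.0 ± 1.16, a difference of 3.29 ± 1.02 (adjusted p = 0.0065) that was 2.96, 2.41 and 4.5 within slides. Peyer exceeded Liver by 5.07 ± 1.02 (adjusted p = 0.00012). Peyer minus Spleen was 1.78 ± 1.02 (adjusted p = 0.14), positive in 5 of 6 pigs, and did not pass. It passed with pig as a replicate block (adjusted p = 0.0056) and without the Peyer array of pig 71, at 2.77 (adjusted p = 0.0076). The order of the tissue means was Peyer, Spleen, Jejunum and Liver, and each neighbouring pair missed the threshold. Spleen minus Jejunum was 2.13 ± 1.02 (adjusted p = 0.076), which passed with pig as a replicate block (adjusted p = 0.0013), and Jejunum minus Liver was 1.16 ± 1.02 (adjusted p = 0.33).

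PNPLA4 was lowest in Spleen. Probe 1 averaged -2.82 ± 0.63 in Spleen and -1.07 ± 0.89 in Liver, a difference of -1.75 ± 0.41 (adjusted p = 0.00068), which was -1.77, -1.87 and -1.62 on slides 1, 2 and 3. Spleen minus Jejunum was -1.58 ± 0.41 (adjusted p = 0.0022). Peyer averaged -1.77 ± 0.72 and exceeded Spleen by 1.05 ± 0.41 (adjusted p = 0.035), but this call was lost without any one of pigs 68, 69, 70, 71 and 73, without the Peyer array of pig 71 (0.92, adjusted p = 0.075), with normexp background (0.57) and in the authors' deposited values (0.49). With pig as a replicate block, a fit whose small error the choice of genes favours, the call stayed (adjusted p = 3.1e-06, in 6 of 6 pigs). Probe 2 gave -1.7 ± 0.41 for Spleen minus Liver and -1.78 ± 0.41 for Spleen minus Jejunum, both called, and 1.18 ± 0.41 for Peyer minus Spleen (adjusted p = 0.018), which was not called without pig 69 (adjusted p = 0.059) or 71 (adjusted p = 0.076), with normexp background (0.38) or in the authors' deposited values (0.41). Spleen minus Jejunum was called on neither probe in the authors' deposited values (-0.92 and -0.74).

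PRKD3 split by probe here too. Probes 2, 3 and 4, which did not follow the pig, were each higher in Spleen than in Jejunum, by 1.79 ± 0.14, 1.82 ± 0.18 and 2.05 ± 0.15 (adjusted p = 9.8e-11, 9.3e-09 and 2.5e-11), in 6 of 6 pigs. Probe 3 averaged 1.31 ± 0.59 in Peyer and -0.11 ± 0.15 in Jejunum, a difference of 1.42 ± 0.18 (adjusted p = 1e-05), and probe 4 was higher in Spleen than in Liver by 1.1 ± 0.15, which was 0.95 and not called with normexp background and in the authors' deposited values. Peyer minus Spleen was -1.04 ± 0.14 on probe 2 and -1.18 ± 0.15 on probe 4 (adjusted p = 1.2e-06 and 4.4e-07). The call on probe 2 was lost without the Peyer array of pig 71 (-0.91, adjusted p = 6.9e-07), where the size was under the threshold, and likewise without pig 71 or 75, with median centring and with normexp background. The call on probe 4 was lost without pig 71 (-0.97). In the authors' deposited values the differences between Peyer and Spleen were -0.03 and -0.1, and Spleen minus Jejunum was 0.81 on probe 2 and 0.94 on probe 4. Probe 3 was lower in Jejunum than in Liver (-1.01 ± 0.18, adjusted p = 4.8e-05), a call lost without pig 70, 71 or 73, with quantile normalization (-0.99), with normexp background (-0.9) and in the authors' deposited values (-0.25). On probe 1, the one that followed the pig, Spleen minus Jejunum was 1.23 ± 0.58 (adjusted p = 0.073), and it passed with pig as a replicate block (adjusted p = 2.9e-05).

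RAB35 probe 1 was higher in Peyer than in Liver by 0.97 ± 0.13 (adjusted p = 7.1e-07) and in Spleen than in Liver by 0.95 ± 0.13 (adjusted p = 8.1e-07), which is under the size required for a call. Probe 3 exceeded Liver by 1.64 ± 0.37 in Peyer and by 1.12 ± 0.37 in Spleen (adjusted p = 0.00043 and 0.01), and Peyer minus Liver was 0.94 in the authors' deposited values. AMOTL2 was lower in Peyer than in Liver, with means of -3.49 ± 1.58 and -1.88 ± 1.15 and a difference of -1.61 ± 0.66 (adjusted p = 0.034), but without the Peyer array of pig 71 the difference was -0.97 (adjusted p = 0.12), and the call was also lost without any one of pigs 68, 69, 70, 73 and 75, with quantile normalization and in a fit of the 12 arrays alone (adjusted p = 0.059 in both). Without pig 71 altogether it was -1.44 (adjusted p = 3.5e-07). Peyer minus Spleen was -1.55 ± 0.66 (adjusted p = 0.051), Jejunum minus Liver -1.33 ± 0.66 (adjusted p = 0.086) and Spleen minus Jejunum 1.27 ± 0.66 (adjusted p = 0.1). With pig as a replicate block these passed, with adjusted p = 2.7e-06, 8.8e-06 and 1.7e-05, and Peyer minus Liver stayed called (adjusted p = 7.1e-07, in 6 of 6 pigs). In the authors' deposited values Peyer minus Liver was -0.05. The probe was well above background on 5 of 6 arrays in both Peyer and Spleen.

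NGLY1, PUSL1, TOMM5 and POLR3F had tissue means closer together than their pigs lay. NGLY1 probe 1 averaged 2.26 ± 0.94 in Peyer, 2.06 ± 1.07 in Jejunum, 2.55 ± 1.2 in Spleen and 2.12 ± 1.09 in Liver. PUSL1 averaged 0.67 ± 0.74, 0.42 ± 0.85, 0.92 ± 0.88 and 1.04 ± 0.96 in the same order, TOMM5 1.57 ± 0.79, 1.26 ± 0.88, 1.14 ± 0.9 and 0.88 ± 0.96, and POLR3F 1.12 ± 0.66, 0.82 ± 0.62, 1.12 ± 0.61 and 0.82 ± 0.66. None of these 4 probes was called by limma in any of the 6 comparisons, where the adjusted p was 0.2 to 1.0 and the difference -0.62 to 0.69 with an SE of 0.35 to 0.59. That fit leaves the spread between pigs in its error. With pig as a replicate block the SE was 0.09 to 0.12, and limma's adjusted p was under 0.05 for some differences of each gene. These were 0.25 to 0.69 in size and so under the size required for a call. These 4 probes were chosen as steady over tissues, which favours a small error in the blocked fit, so its small SE and p-values owe something to the choice. In that fit PUSL1 had Jejunum minus Liver at -0.62 (adjusted p = 3e-05, in 6 of 6 pigs). TOMM5 had Peyer minus Liver at 0.69 (adjusted p = 5.9e-05, in 6 of 6 pigs). Of the other NGLY1 probes, probe 7 was called in Peyer minus Spleen at -1.18 ± 0.38 (adjusted p = 0.012), which was -0.97 without pig 69 and with quantile normalization and -0.35 in the authors' deposited values, none of them called. The call on probe 7 stayed with pig as a replicate block (adjusted p = 1.9e-05, in 6 of 6 pigs).

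**Figure D4:**
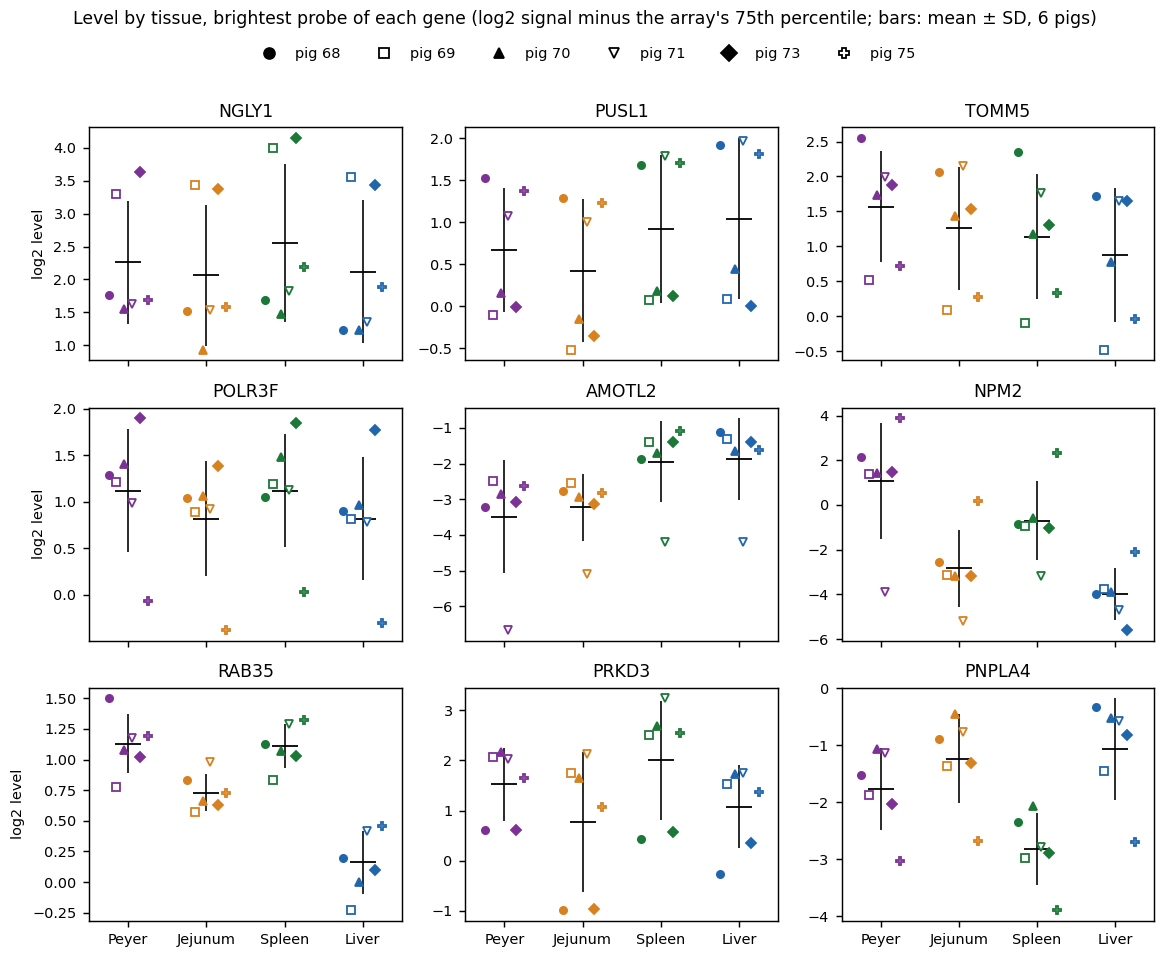
Log2 level (signal minus the 75th percentile of the array) by tissue for the brightest probe named for each gene, with 1 symbol per pig and a horizontal mark with bars for the mean ± SD of 6 pigs. For NGLY1, PUSL1, TOMM5 and POLR3F the same pigs lie high or low in each tissue and the tissue means are close together, while NPM2 is highest in Peyer and lowest in Liver and PNPLA4 lowest in Spleen.

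The probes of other named genes that were most like each member over 24 deviations were found by Pearson's r. These arrays share pigs, slides and scaling, and with 6 pigs many probes can share an order, so r is a description. The highest was PUSL1 with DAD1, a subunit of the enzyme that attaches sugar chains to new proteins, at r = 0.95. DAD1 held a share of 99.0%, with mean deviations of 0.56, -0.98, -0.9, 1.24, -1.07 and 1.15 in pigs 68, 69, 70, 71, 73 and 75. LUC7L2, a splicing factor, followed at 0.91. AMOTL2 had r = 0.93 with CCDC25, which was low in pig 71, at -0.89.

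PRKD3 probe 1 was most like GON7, of a complex that modifies transfer RNA, at r = 0.89, and like NDUFB9, a subunit of respiratory complex I, at 0.82, and all of these were low in pigs 68 and 73. NPM2 was most like RPS10, a ribosomal protein, at r = 0.89 and PIGY, of the synthesis of membrane anchors, at 0.86. POLR3F was most like the receptor GPR83 at r = 0.87 and the formin DIAPH3 at 0.86, both low in pig 75. PNPLA4 was most like FAM204A and HSD17B4, an enzyme of peroxisomal fat breakdown, both at r = 0.86. TOMM5 had 0.81 with C8orf34 and 0.8 with GOSR1, a protein of vesicle transport in the Golgi. RAB35 probe 1 had 0.82 with the actin gene ACTA1 and 0.81 with PUSL1.

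NGLY1 had the lowest values of this kind, 0.76 with FXR1, an RNA-binding protein, and 0.75 with PDHA1 of the pyruvate dehydrogenase complex. In FXR1 the deviations of the pigs spanned -0.12 to 0.15, far less than in NGLY1. RAB35 probe 3 was most like NSMCE4A at r = 0.94 and the mitochondrial chaperonin HSPE1 at 0.9, which had deviations of 2.56 and 2.2 in pig 75. Among the 2336 probes called for pig over the whole array, pig 71 was the farthest from the mean in 29.3% and pig 75 in 25.6%, against 7.4% to 12.9% for each of the others.

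Other genes of the members' pathways and families were seldom called for pig. In 9 lists of related genes, without the members themselves, 6 of 211 tested probes were called for pig, or 2.8% beside 5.48% of all tested probes. At an unadjusted p under 0.05 there were 35, or 16.6%, against 20.5% of all probes. Those called were DERL1, a channel component of glycoprotein disposal (share 75.9%), TRUB2, a pseudouridine synthase (77.9%), CYR61, a target of YAP (82.2%), the GTPase RAB1A (85.7%), the lipid phosphatase OCRL (79.9%) and KIDINS220, a substrate of protein kinase D (88.9%). Each was called on 1 probe. DERL1 was highest in pig 71, at 0.4. The called CYR61 probe ranged from -0.41 in pig 73 to 0.47 in pig 68 and was at -0.36 in pig 71.

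Of the 9 lists, none of the 25 probes of the outer membrane import list was called by limma (1 at an unadjusted p under 0.05), none of 22 of RNA polymerase III (6), none of 9 of the phospholipase family (2) and none of 3 nucleoplasmin probes (0). Among 15 probes of X-linked genes that have a Y-linked copy, and 3 of Y-linked genes, none was called, with 1 and 0 at an unadjusted p under 0.05. On the spleen marker list 4 of 12 tested probes, of 3 genes, were called for pig (33.3%, beside 5.48% of all tested probes). All 4 were of CD163, a macrophage receptor with 6 tested probes, and had the lowest deviation in pig 71, from -0.86 to -0.63. The mean level of the list was lowest in pig 71 in Peyer and Liver. It was lowest in pig 68 in Spleen (3.21, against 3.45 in pig 71) and in pig 70 in Jejunum (-3.45, against -3.32). The part of CD163 in the values of pig 71 above was not tested.

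Genes near the members in the Sscrofa11.1 annotation were compared in the same way, a comparison chosen after the values were seen. Only probes that could be given a gene name entered, so the Cpsf3l probe above did not. The genes compared lay up to 16 genes away (ISG15 for PUSL1), and the nearest for PUSL1 was 3 away on each side. Over the 3 nearest genes with a named and tested probe on each side, r with the member was -0.34 to 0.2 for PRKD3, -0.57 to 0.13 for NGLY1, -0.44 to 0.05 for PNPLA4, -0.33 to 0.36 for POLR3F, -0.46 to 0.36 for RAB35, -0.59 to 0.38 for AMOTL2, -0.65 to 0.56 for NPM2 and -0.56 to 0.6 for PUSL1. The largest in size was -0.8, between TOMM5 and 1 of 5 probes of POLR1E, a subunit of RNA polymerase I that lies 2 genes away. That POLR1E probe had a share of 92.0%. The other POLR1E probes correlated with TOMM5 at -0.58 to -0.12 and had shares of 28.8% to 63.3%.

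In the authors' deposited log2 values the pig patterns could be seen for most members. The share held by pig was 98.6% for PUSL1, 97.4% for POLR3F, 95.1% for TOMM5, 92.7% for NGLY1 probe 1, 90.8% for AMOTL2 and 90.5% for PRKD3 probe 1. It was lower than in the scanner signals for PNPLA4 probe 1, at 70.9%, for NPM2, at 67.3% (a difference of 3.44 between pigs 75 and 71), and for RAB35 probe 3, at 71.0%. For RAB35 probe 2 it was 28.5%, below the upper quartile of 42.2% over all probes of that table, with pigs 71 and 75 0.33 apart. Taken from Liver and Spleen alone, or from Peyer and Jejunum alone, the difference between the highest and lowest pig was 1.73 and 1.72 for PUSL1, 2.44 and 2.26 for NGLY1 probe 1, 2.32 and 2.0 for TOMM5, 1.94 and 1.87 for POLR3F and 2.4 and 2.26 for PRKD3 probe 1. Those tissues were hybridised on separate slides from separate RNA samples of the same pigs. The genes were chosen as steady over all 4 tissues, and the highest and lowest pigs were named from all 4. Likeness of the values is therefore favoured by the choice and is no separate support. For NPM2 the values were 4.06 and 6.54.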

How the data were processed

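RNA of 24 samples (4 tissues of 6 pigs) was labelled with Cy3 and hybridised to 1 array each. The deposited scanner files hold spot intensity from Agilent Feature Extraction 10.10.1.1, background-subtracted and detrended within each array, per the file headers. The authors' deposited table holds log2 values normalized between arrays, made with limma per the submitters' processing notes, and entered as an alternative. Each of its arrays has the same sorted values and a median of 8.24, r with the scanner level of the same array is 0.947 to 0.965, and whether it was centred otherwise is not known. Genome build and limma version of the authors are not given in the sources used here.

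Here log2 processed signals minus the 75th percentile of each array were used. Of 60305 probes, 42650 were tested, which required a tissue whose 6 arrays all measured the probe above background, and no outlier call (136 probes had one). Between 60.4% and 75.6% of probes were well above background per array, and none was saturated. The number of arrays, 6 a tissue, limits the precision. Tissues were compared in R 4.3.3 by linear models and moderated statistics (limma 3.58.1) with tissue as the only term, adjusted by Benjamini and Hochberg. Scripts were tested on simulated data. Pig numbers pair the samples, since labels give them as animals. Array pairs of the same pig from different tissues had a mean r of 0.17 over deviations (26 of 36 pairs over 0.1, lowest -0.021), against -0.034 for other pairs. Genes were named from the files and from RefSeq tables for 25508 probes. Probes of a gene are shown separately.

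Named genes are the members, the 2 most alike named genes per member, and list genes called for pig, at most 3 a list. One gene that this rule names is not reported here. The members, lists and tests were chosen with earlier results of these data known. Alternatives were median centring, quantile normalization, normexp background with an offset of 50, the authors' values, other filters, pig or slide as block, arrays of 2 tissues alone, and leaving out each pig or the Peyer array of pig 71.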

Additional observations from a re-analysis of the deposited data

Results flagged for a closer look

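In 84 groups of 6 arrays (19 tested member probes and 2 tied by accession, in 4 tissues), 13 held an array that lay farther from the nearest other array than Dixon's limit allows. The genes were chosen for differences between pigs and the groups share pigs, so this number is not set against a chance rate. AMOTL2 in pig 71 was flagged in each of the 4 tissues. Of the 13, 9 were arrays of pig 71, 3 of pig 75 and 1 of pig 73.

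AMOTL2 was low in pig 71 in all tissues, with levels of -6.66 in Peyer, -5.09 in Jejunum, -4.21 in Spleen and -4.2 in Liver, where the next lowest pigs had -3.23, -3.14, -1.87 and -1.65. In Peyer the array of pig 71 was also the lowest for NPM2, at -3.87, and for PRKD3 probes 2, 3 and 4, at 0.33, 0.12 and -1.68. That array had the low B cell marker level. RAB35 probe 2 was high in the Spleen of pig 71, at -0.76 against -1.26 for the next.

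Pig 75 was low for POLR3F in Jejunum, at -0.38, and high for RAB35 probe 3 in Jejunum, at 2.35, and in Liver, at 1.53. NGLY1 probe 7 was high in the Peyer array of pig 73, at -1.73.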

How the results depend on the processing

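The number of probes called for pig, 2336 of 42650, was 1360 of 42342 with the authors' values, 1264 with slide and tissue as terms, 2197 without the Peyer array of pig 71, and 1249 to 1883 with 1 pig left out (the lowest without pig 75). Of the 19 member probes, the number called between Peyer and Jejunum (2) was 1 when every one of the 24 arrays had to measure the probe and 2 to 3 with 1 pig left out. Between Spleen and Liver (3) it was 5 with quantile normalization and 3 whichever pig was left out. Between Peyer and Spleen (4) it was 0 with the authors' values (0 at an unadjusted limma p under 0.05 too), 6 with pig as a replicate block and 2 to 3 with 1 pig left out, 2 without pig 69. Between Peyer and Liver (2) it was 1 with quantile normalization, without the Peyer array of pig 71 and in a fit of the 12 arrays alone, 0 when every one of the 24 arrays had to measure the probe (2 of 17 at an unadjusted p under 0.05) and 1 to 3 with 1 pig left out (1 without pig 68, 69, 70 or 73). Between Jejunum and Liver (1) it was 0 with quantile normalization (4 unadjusted) and with the authors' values (1 unadjusted), 2 without the Peyer array of pig 71, in the 12 arrays alone and with pig as a replicate block, and 0 to 1 with 1 pig left out (0 without pig 70 or 73). Between Spleen and Jejunum (4) it was 2 with the authors' values, 7 with the replicate block and 4 to 6 with 1 pig left out. The number of member probes with a share above the upper quartile, 16, was 14 to 16 with 1 pig left out (14 without pig 71). The replicate block ended none of the 21 called tissue differences (16 of member probes and 5 of the 2 probes tied by accession). Over their alternatives 286 values stayed called and 46 did not, 13 of them with the authors' values, and none changed sign. The difference between the farthest pigs moved by more than its SD over tissues for 6 probes with the authors' values, where 15 stayed within it. With normexp 5 moved and 16 stayed (AMOTL2 3.1, and 1.17 with normexp). With median centring and with quantile normalization all 21 stayed. Leaving out another pig cannot change a difference between 2 fixed pigs, so those settings are not counted. Over all probes, counts with the authors' values were 0.31 to 0.63 times the main ones in 5 comparisons (3764 and 6010 for Peyer minus Jejunum, 4104 and 11422 for Peyer minus Spleen, 7588 and 17558 for Peyer minus Liver, 4445 and 14192 for Jejunum minus Liver, 7373 and 13222 for Spleen minus Jejunum). Normexp gave 3635 for Peyer minus Jejunum and 10982 against 16907 for Spleen minus Liver, no filter gave 27376 for Peyer minus Liver, and the stricter filter 0.55 to 0.64 times the main counts, with fewer probes tested. Other causes were not tested. Signals near background limit AMOTL2, NPM2 in Liver, NGLY1 probe 8 and POLR3F probe 2.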
